A study of Mus musculus with 3 samples.

Results

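Chga, Chgb, Neurod1, Neurog3, Tac1, Tph1, Reg4 and Gfra3 are genes of the enteroendocrine lineage, the hormone-secreting cells scattered through the intestinal epithelium. These 8 genes were chosen by symbol from the 32285 genes measured in single-cell RNA-seq of mouse small intestinal organoids, and all 8 were present. They were examined for how their transcripts were distributed over single cells, which of them marked endocrine cells, and which were spread over other cells.

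Organoids are epithelial cells grown as hollow bodies in a gel. The 3 groups were WT, LApc and LApcL, with 1 library per group, so that no spread between animals or cultures could be measured and no test between groups was possible. LApc mice carried Lgr5-CreERT2 with Apc fl/fl, and LApcL mice carried Lef1 fl/fl in addition. Tamoxifen activates this Cre in cells that express the stem cell gene Lgr5, so that Apc, a brake on Wnt signaling, or Apc together with the Wnt transcription factor Lef1, is deleted in stem cells and their progeny. How complete the deletion was in the cultured cells was not measured here. All mice, WT included, are labelled C57BL/6 and were given 2 doses of tamoxifen at 2 mg when 7 to 8 weeks old. The interval from tamoxifen to analysis was 21 days for both WT and LApcL but 29 days for LApc, and the organoids were taken at passage 3 on day 6 of culture. The labels do not say whether WT mice carried the Cre. The dissociated cells were passed through a mesh, and the labels speak of sorted cells, although the study's methods state no sort for organoids. The number of cells of a type in a library can depend on these steps.

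A barcode tags a droplet that usually holds a single cell, and a unique molecular identifier (UMI) tags a single captured RNA molecule. Many barcodes occurred in more than 1 library: 29.0% of the WT, 30.3% of the LApc and 27.3% of the LApcL barcodes were shared, and 3195 occurred in all 3 libraries. The shared barcodes that passed the filters below carried endothelial rather than epithelial transcripts, with Pecam1 at 945 to 1048 UMIs per 1e+06 UMIs (CPM) and Epcam at 24.7 to 163 CPM, and they were left out. Kept were barcodes of 1 library only with at least 1000 UMIs and at most 20% mitochondrial UMIs, namely 2567 barcodes of the WT library, 3272 of LApc and 3807 of LApcL. Their median depth was 8170, 24633 and 10268 UMIs, and Epcam stood at 1164 to 2080 CPM in them. Enterocyte genes reached 11046 CPM in WT against 2.19 and 1.07 CPM in LApc and LApcL, so the cells around the endocrine cells were not the same in the 3 libraries. Xist, the RNA of X inactivation, was high in LApc only, with values given below. A difference in the sex of the animals therefore cannot be told apart from genotype in comparisons with LApc.

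Enteroendocrine cells arise from crypt progenitors that briefly express Neurog3, the basic helix-loop-helix factor that commits cells to this fate. Neurod1, a related factor, follows and is kept in the maturing cells, together with Insm1 and other regulators. Mature cells store hormones in dense-core granules that contain the chromogranins Chga and Chgb. Enterochromaffin cells make serotonin, for which Tph1 is the rate-limiting enzyme, and often Tac1, the precursor of substance P. Gfra3 is a receptor subunit for the neurotrophic factor artemin. Reg4 is a secreted lectin that is known from endocrine cells and also from deep crypt secretory cells of the goblet and Paneth type.

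Among the members, the cAMP response element core TGACGT, searched on both strands, lay within the 250 bases before the RefSeq start of Chga and Chgb and of no other member with an entry. Of 32536 mouse promoters of this length, 6.50% held it. The RefSeq table used here, on build GRCm38.p6, had entries for 7 of the 8 members, with 8 starts in all, and none for Gfra3. The annotations place the Chgb start differently: in GENCODE M21 the window before the RefSeq start lies within the first Chgb exon, at chr2:132781278-132781782, so that for Chgb the element is inside the gene by that model and its window is not shown. The 250 bases are shown for Chga, with the element in capitals, and for Reg4, the member with the most different distribution over cells, which held no match. The match is a description of the letters and not of a site in use.
Chga, chr12:102554691-102554940, plus strand: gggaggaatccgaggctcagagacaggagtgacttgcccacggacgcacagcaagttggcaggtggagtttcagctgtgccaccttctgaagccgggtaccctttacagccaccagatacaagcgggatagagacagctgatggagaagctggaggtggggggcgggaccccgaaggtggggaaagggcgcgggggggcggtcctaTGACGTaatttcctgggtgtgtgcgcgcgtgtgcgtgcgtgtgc
Reg4, chr3:98221906-98222155, plus strand: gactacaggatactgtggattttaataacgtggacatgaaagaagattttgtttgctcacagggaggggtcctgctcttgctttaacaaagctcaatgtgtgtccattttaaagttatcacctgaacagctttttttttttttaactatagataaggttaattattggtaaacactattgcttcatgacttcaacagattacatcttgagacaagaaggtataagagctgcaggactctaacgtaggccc
In Chga the element began 44 bases before the start. In Chgb it began 72 bases before the RefSeq start and was matched on both strands.

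In WT organoids the members were abundant and sat in few cells. The summed level was 31.8 CPM for Chga, from 1732 UMIs in 53 of the 2567 barcodes. Chgb stood at 391 CPM, from 21300 UMIs in 151 barcodes. Tac1 stood at 85.3 CPM, from 4645 UMIs in 73 barcodes. Each of these sums came from a small number of very rich cells: the 5 richest barcodes held 55.3% of the Chga, 50.5% of the Chgb and 49.2% of the Tac1 UMIs. The regulators were less abundant, with 847 UMIs of Neurod1 in 54 barcodes and 216 UMIs of Neurog3 in 9. Tph1 gave 293 UMIs in 24 barcodes, and Gfra3 gave 314 in 48. Reg4 had the widest distribution, with 2716 UMIs in 332 barcodes, or 12.9% of all (95% interval 11.7 to 14.3). All intervals given here are exact and cover counting error only.

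In LApc organoids 7 of the 8 members stood at least 2-fold below WT and none 2-fold above it. Among all 17283 genes compared, 16.1% were lower by that margin and 29.5% higher. Over the members the median log2 ratio was -5.03, against 0.45 over all genes compared, so that the members lay on the other side of a general shift. For LApcL the same medians were -5.48 and 0.40. Both mutant libraries were set against the same WT library, so their ratios share its error. Because each value is a sum over all cells of a library, fewer endocrine cells and less RNA per endocrine cell cannot be told apart from it, and counts of cells follow below.

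Among the granule genes, Chga stood at 1.09 CPM in LApc and 0.788 CPM in LApcL, from 104 and 70 UMIs. This was 29.2-fold (24 to 36) and 40.4-fold (31.8 to 52.0) below WT. A single LApc barcode held 69 of the 104 Chga UMIs, and without the richest barcode of each library the log2 ratio of LApc to WT went from -4.87 to -6.21. Leaving out the highest doublet scores moved it the other way, to -2.41, and moved the ratio of LApcL to WT from -5.33 to -1.25. Chgb stood at 10.6 and 3.16 CPM, which was 36.7-fold (34.5 to 39.2) and 124-fold (110 to 140) below WT. The LApc value of Chgb rested on a single cell, since 961 of its 1018 UMIs lay in 1 barcode and the rest came to 0.596 CPM. Over the processing alternatives the log2 ratios of Chgb to WT ranged from -9.13 to -4.91 in LApc and from -7.89 to -3.67 in LApcL, the last without the highest doublet scores.

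Neurod1 stood at 0.261 CPM in LApc and 0.315 CPM in LApcL, which was 59.5-fold (40.0 to 92.5) and 49.3-fold (33.9 to 74.7) below its WT level of 15.6 CPM. Its log2 ratios ranged over the alternatives from -6.65 to -3.71 in LApc and from -7.18 to -3.21 in LApcL. Neurog3, the earlier regulator, was reduced far less. It stood at 3.97 CPM in WT, 1.59 CPM in LApc and 1.54 CPM in LApcL, which was 2.50-fold (2.02 to 3.09) and 2.57-fold (2.07 to 3.21) below WT. The WT level of Neurog3 came from few barcodes, and a doublet filter that removed the richest of them turned these log2 ratios from -1.32 and -1.36 to 5.16 and 4.89.

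Tac1 stood at 0.973 CPM in LApc and 0.473 CPM in LApcL, 87.7-fold (71.4 to 109) and 180-fold (133 to 251) below WT. Tph1 was found in 24 WT barcodes, in 1 LApc barcode with 18 UMIs, and in 2 LApcL barcodes with 4 UMIs. The WT library gave 314 UMIs of Gfra3, LApc 4 and LApcL 14. Its level in LApc was 138-fold below WT, with a wide interval from 53.3 to 509. Over the alternatives the log2 ratios to WT in either mutant lay between -8.30 and -4.64 for Tac1, -8.84 and -2.42 for Tph1, and -8.94 and -2.55 for Gfra3. Reg4 was the exception among the members, with levels of 49.9, 43.2 and 44.8 CPM in WT, LApc and LApcL. Its log2 ratio between LApc and WT, -0.21 (-0.28 to -0.14), ranged from -0.61 to 0.54 over the processing alternatives.

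**Figure D1:**
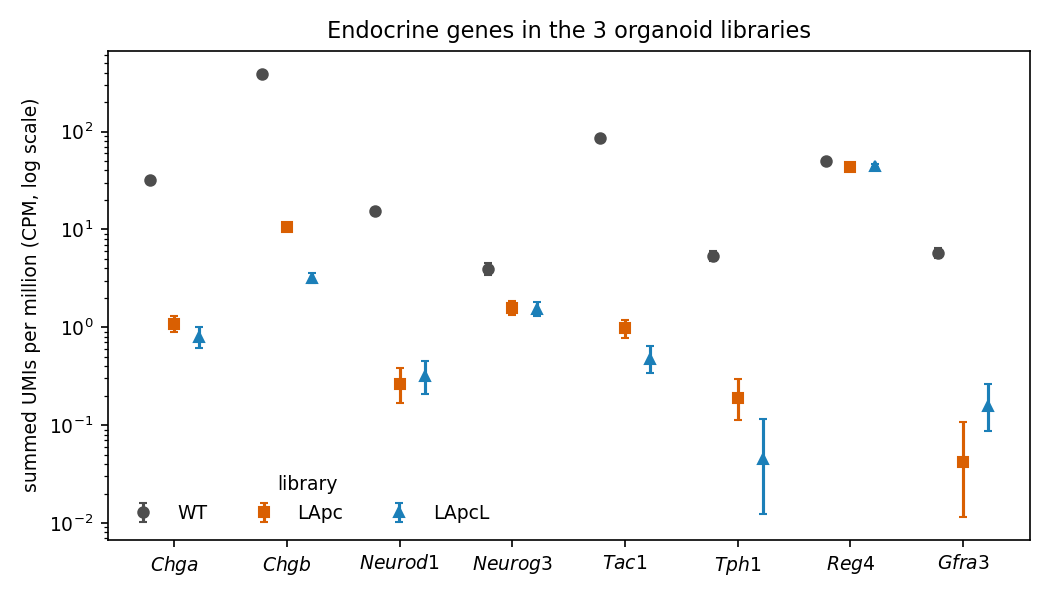
Level of each of the 8 genes in the 3 libraries, as UMIs summed over all kept barcodes per 1e+06 UMIs (log axis), with exact 95% Poisson intervals that cover counting error only; each point is 1 library. Reg4 stays between 43.2 and 49.9 CPM, Neurog3 stands at 3.97, 1.59 and 1.54 CPM, and the other 6 genes sit more than 28-fold lower in both mutant libraries.

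LApcL was also at least 2-fold below WT for 7 of the 8 members, where 18.5% of all genes compared were that much lower and 28.5% that much higher. Between LApcL and LApc the members split. Chgb, Tac1 and Tph1 were at least 2-fold lower in LApcL and Gfra3 was higher, while 12.0% of all genes compared were lower and 4.43% higher by that margin. These ratios rested on few cells, and Chgb and Tph1 changed sign under some alternatives. The log2 ratio of Chgb was -1.75 and turned to 1.58 when the richest barcode of each library was left out, and Gfra3 compared 14 UMIs with 4. Neurog3 and Reg4 differed little between the mutant libraries, with log2 ratios of -0.04 (-0.39 to 0.30) and 0.05 (-0.01 to 0.12).

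To ask which members marked endocrine cells without using the members themselves, barcodes were scored by a separate panel of 24 endocrine genes. The panel held 8 transcription factors, 8 hormones, 7 genes of the secretory granule and the monoamine transporter Slc18a1. Barcodes with at least 4 of these genes numbered 57 in WT (2.22%, 1.69 to 2.87), 45 in LApc (1.38%, 1.0 to 1.84) and 32 in LApcL (0.841%, 0.576 to 1.18). With at least 3 genes the order of WT and LApc was the other way round, at 3.19% and 5.38%, and leaving out the highest doublet scores, which removed 40 of the 57 WT barcodes, gave shares at 4 genes of 0.700%, 1.30% and 0.728% for WT, LApc and LApcL, with WT the lowest. At an equal depth of 10000 UMIs, which 1208, 2161 and 1931 barcodes reached, the shares at 4 genes were 3.23% (2.31 to 4.39), 0.416% (0.191 to 0.789) and 0.311% (0.114 to 0.675), against 3.64%, 2.04% and 1.35% in the same barcodes before thinning. Some panel genes were found in many barcodes. Pcsk1, the prohormone convertase, and Cplx2, a complexin of vesicle fusion, were found in 1004 and 464 LApc barcodes and in 942 and 871 LApcL barcodes, against 110 and 72 in WT, and Sct, the secretin gene, was found in 343 WT barcodes. Of the mutant barcodes in this set, 36 in LApc and 26 in LApcL held only 4 or 5 panel genes. With at least 6 panel genes, 50 barcodes were left in WT (1.95%, 1.45 to 2.56), 9 in LApc (0.275%, 0.126 to 0.522) and 6 in LApcL (0.158%, 0.058 to 0.343). These barcodes are called strict endocrine barcodes here, a name that stands only for the rule: of the 9 in LApc, 1 with 72160 UMIs held 7 panel genes at 1 to 4 UMIs each and no member but Reg4. Leaving out the highest doublet scores took 38 of the 50 in WT, 2 of the 9 in LApc and 1 of the 6 in LApcL, which left 0.494%, 0.228% and 0.140%. Their median depth was 22381 UMIs for WT, 27113 for LApc and 11978 for LApcL.

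In WT, 7 of the 8 members were concentrated in the panel barcodes, in the sense that at least 80% of their UMIs lay there, as was the case for 1.63% of the 15071 genes with at least 10 UMIs in that library. The share was 99.5% for Chga, 99.4% for Chgb, 99.1% for both Neurod1 and Neurog3, 99% for Tac1, 98.1% for Gfra3 and 97.3% for Tph1. Reg4 stood apart with 38.5% (36.7 to 40.4). The number of concentrated members was 5 without the highest doublet scores and 2 in barcodes thinned to 1000 UMIs, in which 37 panel barcodes were left. Within the 57 panel barcodes, Chgb was found in 86.0%, Chga and Neurod1 each in 80.7% and Gfra3 in 75.4%. Tac1 was found in 57.9%, Tph1 in 28.1%, Reg4 in 14.0% and Neurog3 in 12.3%. Chgb, Chga, Neurod1 and Gfra3 thus covered most of the WT endocrine barcodes, whereas Tac1, Tph1 and Neurog3 were as concentrated but covered fewer of them.

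Outside the panel barcodes, Chgb was still found in 102 WT barcodes, but in 95 of them as a single UMI. In 485 WT barcodes rich in enterocyte genes, which should lack chromogranins, Chgb had a UMI in 4.74% (3.03 to 7.03) at a median depth of 38497 UMIs. The share was 4.06% over all barcodes outside the panel set, at a median depth of 7827 UMIs, so that the shares compare unequal depths. As a level, which does not depend on depth in this way, Chgb stood at 2.38 CPM outside the panel set and 1.31 CPM in the enterocyte-rich barcodes. Tac1 was found in 40 WT barcodes outside the panel set (1.59%), in 37 of them as 1 UMI, and in 2.68% of the enterocyte-rich barcodes, at 0.905 and 1.08 CPM. Chga, Neurod1, Neurog3 and Gfra3 had no UMI in the enterocyte-rich barcodes, which allows a share of barcodes with a UMI of up to 0.758% and sets no limit on cells that express the gene below detection. Of the 151 barcodes with Chgb, 49 lay in the panel set, and single UMIs of Chgb or Tac1 were not read as endocrine cells.

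In the mutants most members with enough UMIs were concentrated as well. All 25 Neurod1 UMIs and all 18 Tph1 UMIs of LApc lay in panel barcodes, as did 98.7% of the Neurog3, 97.8% of the Chgb and 80.8% of the Chga UMIs. A single LApc barcode held 961 of the 1018 Chgb, 69 of the 104 Chga and all 18 Tph1 UMIs. Without it, panel barcodes held 35 of 57 Chgb and 15 of 35 Chga UMIs, both under 80%, and no Tph1 was left. In LApcL the shares in panel barcodes were 100% for Gfra3, 96.4% for Neurod1, 90.7% for Chgb, 85.4% for Neurog3 and 78.6% for Chga. In the strict endocrine barcodes of LApcL they were 92.9% for Gfra3 and Neurod1, 62.6% for Chgb, 64.2% for Neurog3 and 31.4% for Chga, so that Chgb and Neurog3 no longer reached 80%. In those of LApc, Chga came to 79.8%, just under that limit. Counting members with at least 10 UMIs, 5 were concentrated in the panel barcodes of LApc and 4 in those of LApcL, against 0.104% and 0.110% of all genes with that many UMIs. Without the highest doublet scores the numbers were 2 and 4, and in barcodes thinned to 1000 UMIs, of which 0 in LApc and 5 in LApcL were panel barcodes, they were 0 and 0. Chga, Chgb and Neurod1 were found in only 15.6%, 13.3% and 13.3% of the LApc panel barcodes. In LApcL it was 18.8%, 18.8% and 15.6%, against over 80% each in WT. Tac1, Tph1 and Gfra3 also covered fewer than in WT, but Neurog3 (13.3% and 12.5%) and Reg4 (48.9% and 28.1%) did not. Tac1 was no longer concentrated: 15.1% of its UMIs in LApc and 9.52% in LApcL lay in the panel barcodes, where its level was 6.22 and 2.17 CPM against 3257 CPM in WT. Its remaining UMIs were thinly spread, over 34 LApc barcodes with up to 18 UMIs and 26 LApcL barcodes with up to 4. The level of Tac1 outside the panel barcodes was 0.905, 0.846 and 0.437 CPM in WT, LApc and LApcL, while the richest Tac1 barcode of each library held 551, 18 and 4 UMIs. The shared, endothelial-type barcodes held Tac1 at 3.62, 2.78 and 1.70 CPM, and the part of such RNA in the thinly spread Tac1 was not tested.

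**Figure D2:**
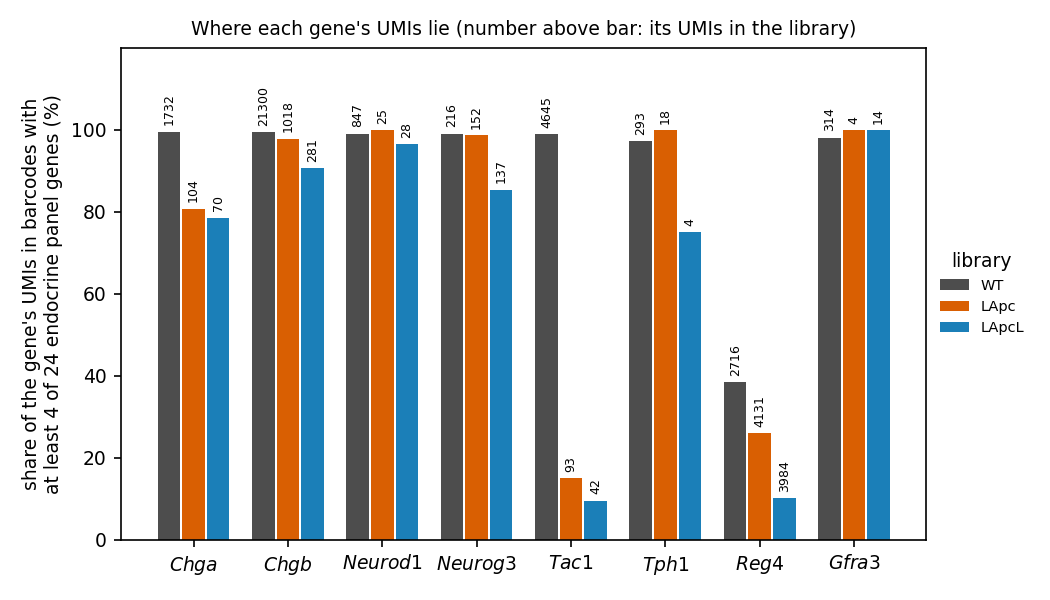
Share of the UMIs of each gene that lay in barcodes with at least 4 of the 24 endocrine panel genes, by library; the number above each bar is the number of UMIs of that gene in the library. In WT all genes but Reg4 stand above 97%, and in the mutants Tac1 joins Reg4 at the low end, while bars over 4 UMIs carry little weight.

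The members were found together in the same WT barcodes. Of 53 barcodes with Chga, 47 held Chgb (88.7%), 43 held Neurod1 (81.1%) and 41 held Gfra3 (77.4%). Of the WT barcodes without Chga, 4.14% held Chgb and 0.438% held Neurod1. Of the 48 barcodes with Gfra3, 43 held Chgb, 42 held Neurod1 and 41 held Chga. Reg4 was not part of this group: 4 of its 332 barcodes held Chga (1.20%), against 2.19% of the barcodes without Reg4. At a fixed depth of 10000 UMIs per barcode, which 1208 WT barcodes reached, 37 of 38 barcodes with Chga held Chgb.

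**Figure D3:**
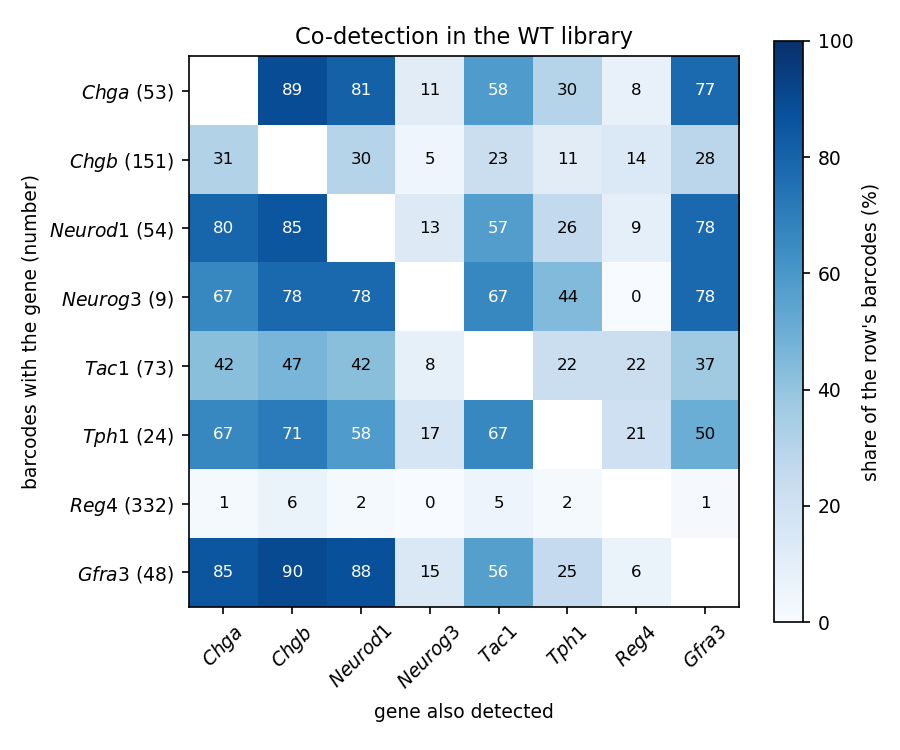
Co-detection of the 8 genes in the 2567 WT barcodes. Each row takes the barcodes with at least 1 UMI of a gene, with their number in parentheses, and the color and number give the percentage that also held the gene of the column; Chga, Neurod1 and Gfra3 share most of their barcodes, and the Reg4 row is at most 6.33%.

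At least 3 members were found together in 51 WT barcodes (1.99%, 1.48 to 2.60), 6 LApc barcodes (0.183%, 0.067 to 0.399) and 6 LApcL barcodes (0.158%, 0.058 to 0.343). Without the highest doublet scores 14, 4 and 6 were left, or 0.576%, 0.130% and 0.168%. Of the full sets, 48, 6 and 6 lay in the panel barcodes, which had been chosen without the members. No barcode held all 8. Of the 10 genes with the highest ratio of level in these barcodes to the rest, members aside, 7 in each library were on the panel or the wider endocrine list. They came from 6697, 1685 and 420 eligible genes in WT, LApc and LApcL, of which the listed share was not counted. In WT, Scg2, a granin, stood at 1726 CPM in them and 0.131 CPM elsewhere, followed by Adgrg4, Resp18, Syt13, Fev, Gcg, Cck, Rfx6, Nkx2-2 and Hmgn3. In LApc the leading genes were Gng2, Nkx2-2, Vwa5b2, Sct, Celf3, Insm1, Scg5, Bex2, Iapp and Olfm1. In LApcL they were Scg2, Scgn, Pyy, Etv1, Pcsk1n, Ghrl, Ttr, Insm1, Sct and Sult1d1. The mutant lists rested on 6 barcodes each, and in LApcL Pyy, Etv1, Ghrl, Ttr and Sult1d1 were each found in only 33.3% of them.

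Likeness of detection was measured by the phi coefficient over barcodes thinned to 10000 UMIs, a description over cells of 1 library. In WT, Chga was most like Cacna2d1 (0.90), Cpe (0.90) and Neurod1 (0.89). Neurod1 was most like Insm1 and Cacna2d1 (both 0.93) and Cpe (0.92), and Gfra3 was most like Insm1 (0.90), Neurod1 (0.89) and Cpe (0.87). Chgb was most like Chga (0.83), Cpe (0.81) and Neurod1 (0.80). Tph1 went with Lmx1a (0.89), a transcription factor of serotonin-producing cells, and then with Pappa2 and Adcy1 (both 0.74). Tac1 had no equally close partner, with Rab3c, Hmgn3 and Chga all at 0.63. Reg4 was only loosely matched, to Guca2a (0.34), the precursor of guanylin, to Spink1 (0.23) and to Abca1 (0.22). Neurog3 was taken in LApcL, which had the most Neurog3 barcodes before thinning (11, against 9 in WT and 8 in LApc). After thinning 5 were left there, against 8 in WT and 6 in LApc, and its matches Miat (0.67), Rimbp2 and Sema3g (both 0.63) rested on 2 or 3 shared cells.

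The WT panel barcodes fell into different hormone profiles, which the members divided. The 16 panel barcodes with Tph1 all held Chga, Chgb and Tac1. Their median was 916 UMIs of Chgb, from 70 to 3137, and 134 UMIs of Tac1, from 12 to 551. In the 41 panel barcodes without Tph1, the median was 39 UMIs of Chgb and 0 of Tac1. The Tph1 barcodes were thus the rich ones for Chgb, although the groups overlapped, since a barcode without Tph1 reached 673 Chgb UMIs. None of the 16 held Gcg or Gip, the glucagon and GIP genes, and 3 held Cck. Of the 41 without Tph1, 35 held Cck, the cholecystokinin gene, and 23 held Gcg. Sct was found in both groups, in 14 of 16 and 38 of 41.

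Tac1 was not limited to the Tph1 barcodes. It was also found in 17 of the 41 panel barcodes without Tph1, with up to 289 UMIs. The barcodes with Cck and Tac1 together included one with 3191 UMIs of Cck and 269 of Tac1 and another with 6980 and 107. Neurod1 and Gfra3 were found in both groups alike, Neurod1 in 14 of 16 and 32 of 41 and Gfra3 in 11 of 16 and 32 of 41. Isl1, a LIM-homeodomain factor of peptide-hormone cells, was found in 1 of 16 and 28 of 41. Single cells of rarer kinds were present too, such as a barcode with 1058 UMIs of the somatostatin gene Sst, which held 11 UMIs of Chga and 2 of Chgb.

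Neurog3 was sharply restricted in every library. At least 10 Neurog3 UMIs were found in 5 of 2567 WT, 4 of 3272 LApc and 4 of 3807 LApcL barcodes, which held 98.1%, 91.4% and 94.2% of all Neurog3 UMIs. Their counts were 82, 47, 41, 27 and 15 in WT, 80, 27, 20 and 12 in LApc, and 57, 31, 28 and 13 in LApcL. Without the highest doublet scores the numbers were 0, 3 and 2, so that no Neurog3-rich barcode was left in WT. The ratio of Neurog3 to Chga UMIs was 0.125, 1.46 and 1.96 for WT, LApc and LApcL.

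The Neurog3-rich barcodes differed in what else they held. In WT, 4 of the 5 also carried the serotonin profile, with 1360, 607, 380 and 2228 UMIs of Chgb beside 47, 41, 27 and 15 of Neurog3, and all 4 had Tph1. The fifth, with 82 Neurog3 UMIs, held no UMI of Chga, Chgb, Tac1 or Tph1, but 11 of Insm1, a target of Neurog3, and 8 of Nkx2-2. In LApc the 4 barcodes held 0, 3, 2 and 0 UMIs of Chgb, in the order of their Neurog3 counts. In LApcL all 4 held 0 Chgb and 0 Chga, and the one with 13 Neurog3 UMIs held only 3 panel genes beside 21 UMIs of Reg4, 300 of Lyz1 and 1573 of Defa24, both Paneth genes. With 4 or 5 cells per library these counts are a description, and no test was made.

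In the mutants, 1 LApc barcode stood out for a WT-like serotonin profile. It held 961 UMIs of Chgb, 69 of Chga, 18 of Tph1, 14 of Tac1, 9 of Neurog3 and 3 of Gfra3, at a depth of 37920 UMIs. It also held 37 UMIs of Xist, the RNA of X inactivation. Xist stood at 1272 CPM in the LApc barcodes with under 4 panel genes, at 1.13 CPM in those of WT and at 0.264 CPM in those of LApcL. Over the 9 strict endocrine barcodes of LApc, the Wnt targets Nkd1 and Axin2 stood at 738 (646 to 840) and 399 (332 to 476) CPM, each with a UMI in 9 of 9. The LApc barcodes with under 4 panel genes stood at 532 and 400 CPM, and the 50 strict WT barcodes at 0 and 30.7 CPM. These are pooled levels to which deep barcodes add most: 76 of the 231 Nkd1 UMIs lay in 1 barcode of 72160 UMIs, the one with no member but Reg4. The LApc barcodes with 80 and 12 Neurog3 UMIs held 2 of Nkd1 each. In LApcL, where 3 of the 6 strict barcodes held Nkd1, the levels were 120 (55 to 228) and 66.9 (21.7 to 156) CPM, against 186 and 326 CPM in the LApcL barcodes with under 4 panel genes.

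The other strict barcodes of LApc were poor in granule genes but could be rich in secretin: 4 of them held 481, 308, 228 and 34 UMIs of Sct, with 2, 3, 14 and 8 of Chgb. None of the 9 had a UMI of Cck, Gcg, Gip or Pyy. In LApcL the richest strict barcode held 644 UMIs of Sct, 123 of Chgb, 18 of Chga and 9 of Gfra3. Another held 305 UMIs of Pyy and 50 of Gcg with 21 of Chgb. A further pair of LApcL barcodes with 5 panel genes had the granule genes without rich hormones, with 23 and 9 UMIs of Chga and 73 and 6 of Chgb.

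**Figure D4:**
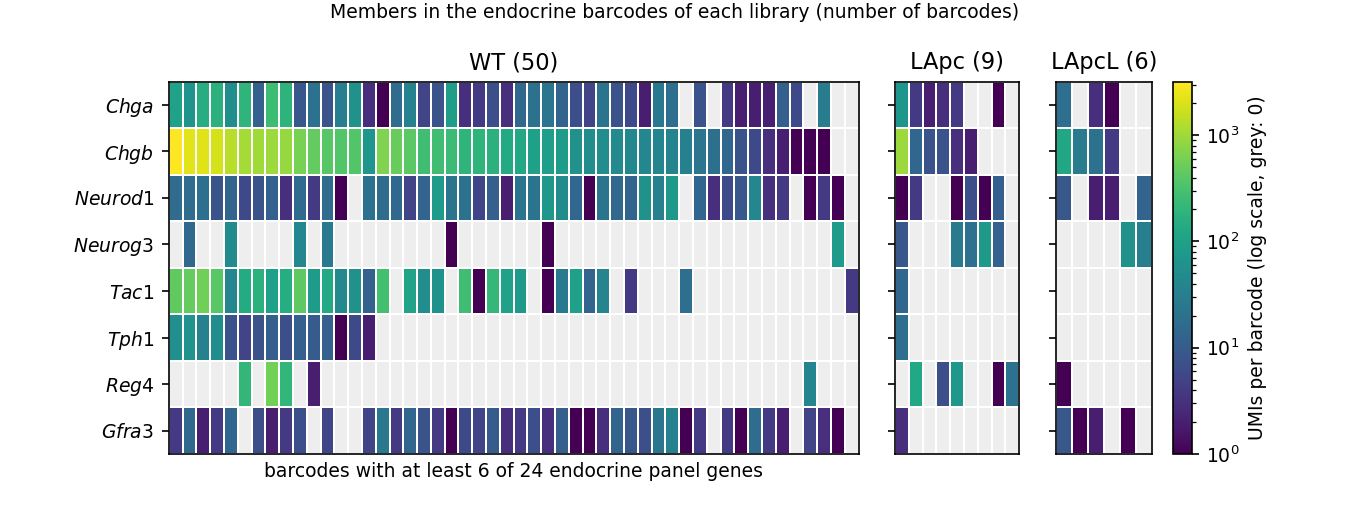
UMIs of the 8 genes in each barcode with at least 6 of the 24 endocrine panel genes (log color scale, grey for 0), for 50 WT, 9 LApc and 6 LApcL barcodes; within a library, barcodes with Tph1 come first and then follow in order of Chgb. The WT barcodes with Tph1 carry the most Chgb and Tac1, Neurog3 is seen in few barcodes of each library, and Tac1 is absent from all but 1 of the mutant barcodes.

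Most Reg4 UMIs lay outside the panel barcodes, and the barcodes rich in Reg4 were high in genes of other secretory cells. In WT, 45 barcodes outside the panel set held at least 10 Reg4 UMIs, and together they carried 37.0% of the Reg4 UMIs. A list of 7 goblet genes stood at 14696 CPM in them and at 964 CPM in the barcodes without Reg4, and a list of 6 Paneth genes at 2326 and 160 CPM. All 7 goblet genes were higher there, and 5 of the 6 Paneth genes, with Mmp7 at 0 in both. Muc2, the main intestinal mucin, had a UMI in 35.6% of these barcodes against 5.67% of those without Reg4, and Tff3, a goblet trefoil peptide, in 51.1% against 19.0%. These shares compare median depths of 38577 and 6267 UMIs. Enterocyte genes were found in the Reg4-rich barcodes too, with a UMI of Fabp1, the fatty acid binding protein, in 93.3% of them, and 5 of the 6 genes of that list were higher there. The list differed little in level, at 13230 CPM in them and 10021 CPM in the barcodes without Reg4.

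Low counts of Reg4 were spread widely in WT. A further 143 barcodes outside the panel set held 2 to 9 Reg4 UMIs and 136 held 1. In the enterocyte-rich WT barcodes 26.2% (22.3 to 30.3) had a Reg4 UMI, at 35.8 CPM, close to the 31.5 CPM of all barcodes outside the panel set. These 127 barcodes held 630 Reg4 UMIs, more than the 529 of all barcodes with 2 to 9. Both levels thus include barcodes with at least 10 Reg4 UMIs. In the shared, endothelial-type barcodes of WT the share with a Reg4 UMI was 0.177% at a median depth of 2395 UMIs, or 3.00 CPM.

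In the mutants a larger share of Reg4 lay in such barcodes. At least 10 Reg4 UMIs were found outside the panel set in 44 LApc and 55 LApcL barcodes, which carried 67.3% and 86.2% of all Reg4 UMIs. The Paneth list stood at 45223 CPM in those of LApc and 96558 CPM in those of LApcL, against 454 and 1064 CPM in barcodes without Reg4. The goblet list stood at 10485 and 24172 CPM, against 105 and 108 CPM. All 6 Paneth genes were higher in both libraries, and 5 and 6 of the 7 goblet genes. The exceptions were Clca1 and Zg16 in LApc and Zg16 in LApcL, which had no UMI in the Reg4-rich barcodes. In LApcL, Tff3, Spink4 and Mmp7 had a UMI in all 55 of the barcodes, and Lyz1, the Paneth lysozyme, in 78.2%. Markers of both cell types were thus high in the same sets of barcodes.

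Including those in the panel set, barcodes with at least 10 Reg4 UMIs made up 1.95%, 1.65% and 1.60% of the WT, LApc and LApcL barcodes. Those with at least 10 Chga UMIs made up 0.935%, 0.031% and 0.053%. Without the highest doublet scores these shares were 1.81%, 1.66% and 1.34% for Reg4 and 0.123%, 0% and 0.056% for Chga.

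Some endocrine barcodes were rich in Reg4 as well. In the 5 WT panel barcodes with at least 10 Reg4 UMIs, Reg4 came to 1042 UMIs, 38.4% of the total, and the goblet and Paneth lists were low at 263 and 39.5 CPM. The 3 richest barcodes held 578, 207 and 204 Reg4 UMIs beside 256, 193 and 184 of Chga, the 3 highest Chga counts of the library. All 3 also held Tph1, with 11, 5 and 7 UMIs, and Tac1, with 96, 139 and 149. In LApc, 2 strict endocrine barcodes with 308 and 228 UMIs of Sct held 72 and 125 of Reg4, with 0 and 1 of Lyz1 and none of Muc2. Lyz1 and Muc2 are only 2 of the genes on the Paneth and goblet lists. Over all 9 strict LApc barcodes the goblet and Paneth lists stood at 1198 and 2639 CPM. In LApc barcodes without Reg4 outside the panel set they stood at 105 and 454 CPM. Summed over all panel barcodes with at least 10 Reg4 UMIs, the mutants were also high in secretory markers. The 10 such LApc barcodes had 6204 CPM of the goblet and 22583 CPM of the Paneth list, and the 6 in LApcL had 14347 and 40515 CPM.

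**Figure D5:**
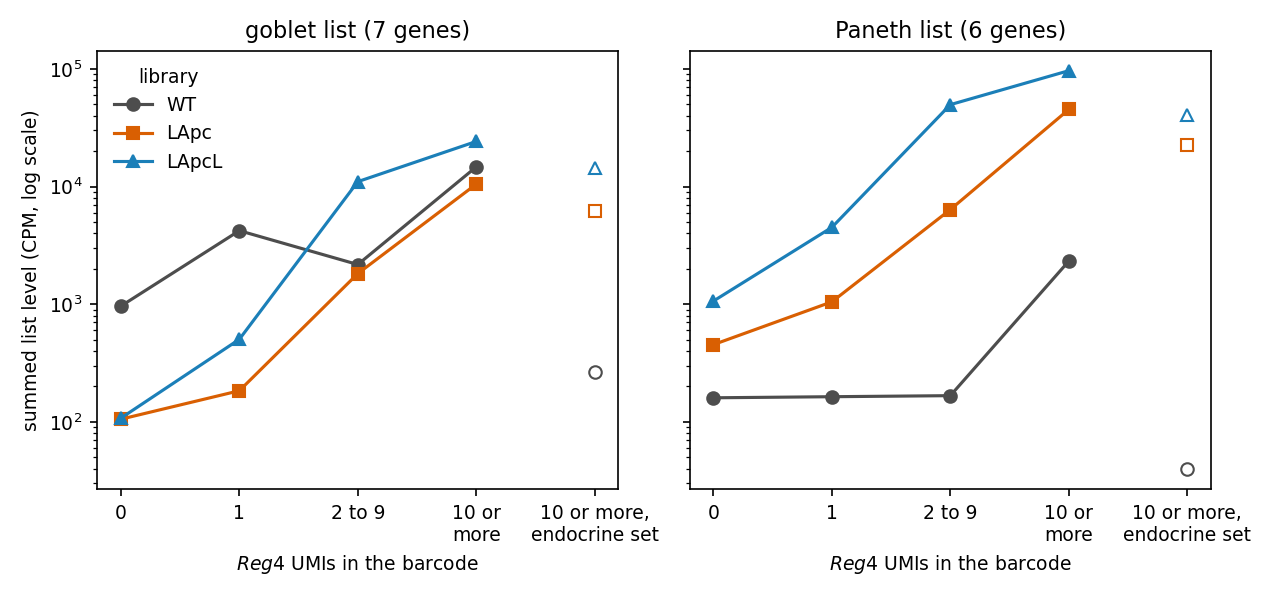
Summed level (CPM, log axis) of 7 goblet genes and 6 Paneth genes in barcodes grouped by their Reg4 UMIs; filled symbols are barcodes outside the endocrine panel set and open symbols those inside it with at least 10 Reg4 UMIs, for each library. Both lists are highest in barcodes with at least 10 Reg4 UMIs outside the panel set, and the WT barcodes inside it are low for both.

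Most other endocrine genes were also lower in the mutants. Of the 24 panel genes, 20 were at least 2-fold lower in LApc than in WT and 2 were higher, Pcsk1 and Cplx2, with a median log2 ratio of -4.08. All 8 regulators and 7 of the 8 hormones were lower, among them Cck, at 645 CPM in WT, 0.627 CPM in LApc and 0.011 CPM in LApcL. Gip and Sst, with 5690 and 1074 UMIs in WT, had 0 UMIs in both mutant libraries. Sct was the hormone below the 2-fold limit, at 42.1, 23.7 and 22.6 CPM, and it had a UMI in 343, 443 and 303 barcodes. In LApcL against WT 21 panel genes were lower and 1 higher. Between LApcL and LApc, of 18 panel genes tested, 5 were higher and 4 lower, with Pyy, the peptide YY gene, at 4.11 CPM in LApcL and 0.021 CPM in LApc. A single LApcL barcode held 305 of the 365 Pyy UMIs, and the rest came to 0.675 CPM.

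A wider list of 24 genes linked to endocrine cells was less specific, with 17 lower and 5 higher in LApc than in WT. In WT, 12 of the 20 genes with at least 10 UMIs had at least 80% of their UMIs in the panel barcodes, and in LApc 1 of 20. The 3 highest in the WT panel barcodes were Cpe, Sox4 and Etv1. Cpe, the carboxypeptidase that trims prohormones, had 97.6% of its UMIs in the panel barcodes of WT, 17.8% in LApc and 33.8% in LApcL, while Sox4 had 5.78% there already in WT. In the LApc panel barcodes the highest were Npy, Sox4 and Cpe, and in those of LApcL Sox4, Cpe and Ddc. Neurod1, with 100% in LApc and 96.4% in LApcL, was thus more restricted to the panel barcodes of the mutants than these genes were.

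The 8 genes lie on 7 chromosomes of build GRCm38. Chga is at chr12:102554969-102565028 and Tac1 at chr6:7554879-7565834, both on the plus strand. Chgb, at chr2:132781278-132795079 on the plus strand, and Neurod1, at chr2:79452521-79456751 on the minus strand, share a chromosome. Reads from Neurod1 could be split with Cerkl, which overlaps it on the same strand and had 45 UMIs in WT. Neurog3 is at chr10:62133090-62134763 on the plus strand and overlaps Fam241b on the opposite strand. Reg4, at chr3:98222156-98236748 on the plus strand, Tph1, at chr7:46644641-46672537 on the minus strand, and Gfra3, at chr18:34689898-34720387 on the minus strand, had no overlapping gene in GENCODE M21.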

How the data were processed

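Droplet-based 10x libraries of organoid cells were measured in 3 samples, 1 per group. Per the file headers, the deposited counts of UMIs per gene and barcode were made by the authors with Cell Ranger 6.0.1, whereas the labels and the study's methods name version 2.1.1. The labels give build mm10, and the counts carried no normalization. Only barcodes called as cells, with at least 500 UMIs, were present. The members and gene lists were chosen with earlier results of these data known.

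Kept barcodes were those of 1 library with at least 1000 UMIs and at most 20% of UMIs from 13 mitochondrial genes, and the study's further trim of 1% of barcodes at either end by genes detected was run as an alternative. Mitochondrial content was over the limit in 4508, 3509 and 3735 further barcodes of 1 library in WT, LApc and LApcL. Kept UMIs came to 54460397, 95625630 and 88832931. Levels were sums of UMIs over kept barcodes per 1e+06 UMIs (CPM). Intervals at 95% were exact and covered counting error only, using the Poisson distribution (sums), the binomial given the total (ratios) or the Clopper-Pearson method (shares). Genes needed at least 10 UMIs in either library of a comparison, and 2-fold was the limit. A count of 0 allows up to 3 counts. Shares of positive cells were also computed in barcodes thinned to 1000 or 10000 UMIs.

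Named were the 8 members, the 3 genes of each endocrine list with the highest CPM in panel barcodes, the 10 genes with the highest ratio in barcodes with at least 3 members (at least 20 UMIs there and a UMI in at least 25% of them), and the 3 genes with the highest phi for each member. Other named genes were chosen after their values were seen, and so were the reference class of enterocyte-rich WT barcodes (at least 10000 CPM of the enterocyte list, outside the panel set), the strict endocrine barcodes as a class of their own, and the limits of 10 and 100 UMIs. Doublets were left in: Scrublet in scanpy 1.11.5 marked 1 barcode per library at its automatic threshold, among 5387, 5558 and 6210 scored, and so did not work. As an alternative the highest scores were removed at 0.8% per 1000 barcodes. Python 3.11.15 with numpy 2.4.6, scipy 1.17.1 and pandas 2.3.3 was used, and the intervals were tested on simulated data.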

Additional observations from a re-analysis of the deposited data

Results flagged for a closer look

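Barcodes that occurred in more than 1 library were outside every comparison, and 3 members had more UMIs in them than the 3 counts that a count of 0 allows. In WT, Chgb had 4 UMIs in 4 such barcodes, Tac1 had 29 UMIs in 9 and Reg4 had 24 UMIs in 5. Tac1 also had 15 UMIs in 4 shared barcodes of LApc and 10 UMIs in 5 of LApcL. Reg4 had 22 UMIs in 2 shared barcodes of LApcL, 21 of them in 1 barcode.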

How the results depend on the processing

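No paired analysis was possible because each group had 1 library. Over the 12 alternatives that apply to it, the number of members at least 2-fold below WT was 6 or 7 of 8 in both mutants. Removing the highest doublet scores took 38 of the 50 strict WT endocrine barcodes, and the cause was not tested. It turned the log2 ratio of Neurog3 against WT to 5.16 (LApc) and 4.89 (LApcL), with 1 member 2-fold higher in each comparison. Between LApcL and LApc it turned Chgb to 2.50 and Tph1 to 0.56, with 3 members 2-fold higher and 0 lower. For Tph1 the only LApc barcode was removed, and the 0 was set to 3 counts. It gave panel shares of 0.700%, 1.30% and 0.728% in WT, LApc and LApcL, which put WT lowest, 2 concentrated members in LApc, and 24 in place of 63 barcodes with at least 3 members (14, 4 and 6 in place of 51, 6 and 6). Thinning to 1000 UMIs turned the LApcL to LApc log2 ratio of Chgb to 0.98, with 0 members lower. Tph1 then had 2 UMIs in LApc and 0 in LApcL, and Gfra3 had 0 in LApc and 2 in LApcL, so both kept their direction. Their computed ratios of 0.37 and -0.80 came from setting the 0 to 3 counts. It gave panel shares of 1.44%, 0% and 0.131% in WT, LApc and LApcL, with 2, 0 and 0 concentrated members and 29 barcodes with at least 3 members. Without the richest barcode of each member, Chgb turned to 1.58 between LApcL and LApc and 0 members were lower, and with CPM + 1 it was 0 higher and 1 lower. The panel share in WT, LApc and LApcL was 0.961%, 0.678% and 0.451% with no mitochondrial limit, 3.44%, 1.84% and 1.35% with a limit of 10%, 3.64%, 2.04% and 1.35% with at least 10000 UMIs, and 1.08%, 0.810% and 0.515% with shared barcodes. It was 3.19%, 5.38% and 2.99% with at least 3 panel genes. With at least 6 it was 0.275% in LApc and 0.158% in LApcL, where 2 members were concentrated. With 1 library per group, depth limits only counting error, and members with under 10 UMIs in a library carry little weight.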
